A study of Mus musculus with 27 samples.

Results

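A group of 54 probe sets of a mouse expression array was low in medulloblastoma treated with NVP-LDE225 for 16 h and 48 h and was still low in tumours that had become resistant to the drug. A probe set is a group of short probes on the array that together report 1 transcript, or several closely related ones. The members were selected on the measured values themselves. Of 45101 probe sets on the array, 64 controls were left out, and 18194 of the remaining 45037 had a mean signal of at least 50 over the 8 vehicle tumours. Among these, 436 had fallen by at least 1 on the scale of log2(signal + 4) at both 16 h and 48 h, each against vehicle at the same time. The 54 members were those of the 436 whose mean over the 5 resistant tumours lay at least 0.7 below the mean of the 8 vehicle tumours, and the other 382 drug-repressed probe sets lay above that limit. A difference of -1 on this scale is close to a halving of signal for bright probe sets and understates the change of dim ones.

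Each of the 21 tumours was grown in a nude (nu/nu) mouse from cells of a medulloblastoma of a Ptch+/-p53-/- transgenic mouse, placed under the skin of the right flank, so no tumour lay in the brain and the host lacked a normal T cell compartment. Vehicle tumours were taken at 4 h (Veh-4h, n = 3), 16 h (Veh-16h, n = 3) and 48 h (Veh-48h, n = 2). Drug-sensitive tumours received 20 mg/kg/day of LDE225 once a day and were taken at 4 h (LDE-4h, n = 3), 16 h (LDE-16h, n = 3) and 48 h (LDE-48h, n = 2). Resistant tumours, collected on day 26 of treatment, had been dosed bid with 20 mg/kg/day (RES-20, n = 2) or 160 mg/kg/day (RES-160, n = 3). All groups shared the tumour genotype, and each array held 1 tumour from 1 mouse, named here by its mouse number. No resistant tumour had a vehicle tumour of the same duration on these arrays.

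Ptch1 is the receptor that holds the membrane protein Smo in check, and Smo passes the Hedgehog signal on to the Gli transcription factors. In cerebellar granule neuron precursors this pathway drives proliferation, and loss of Ptch1 gives rise to medulloblastoma. LDE225 is an antagonist of Smo. Gli1 and Ptch1 are themselves Hedgehog targets, and their transcripts are commonly read as a measure of the pathway's activity. No table used here links the array's identifiers to genes, so the members are given by their array identifiers. Their gene functions, promoter sequences and DNA copy number, and the gene lists of the pathway and of other cell types, were not analysed here. In these bulk samples, fewer cells of a type and less RNA per cell cannot be told apart.

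The members covered a wide range of brightness, with vehicle means between 62.3 and 3245 and a median of 410.3. By name, 42 carried the plain suffix _at, 5 the suffix _a_at, 1 the suffix _s_at and 6 the suffix _x_at. The last marks probe sets with probes that can also match other transcripts. They made up 11.1% of the members and 6.57% of all 18194 probe sets at this brightness. Several members ran so closely together over the 21 tumours that they cannot be counted as separate observations. With each one's vehicle mean taken off, 1425860_x_at and 1451374_x_at were never more than 0.27 apart, and 1436172_at and 1455581_x_at never more than 0.30. The largest gap was 0.44 for 1425957_x_at and 1450281_a_at, also 0.44 for 1419397_at and 1436472_at, 0.445 for 1419383_at and 1434342_at, 0.46 for 1421002_at and 1450085_at, and 0.48 for 1424766_at and 1452179_at. These pairs were picked after their values were seen, as the closest of all member pairs.

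By construction, every member was low at 16 h, 48 h and in resistance, so their values in these contrasts are a description with no test. The median difference was -1.78 at 16 h, -1.90 at 48 h and -0.95 in resistant tumours, where the members ran from -2.46 to -0.71. Among all 18194 probe sets, 3.92% met the limit of the rule at 16 h, 7.46% at 48 h and 2.52% in resistance. Of the members, 29 were lower at 48 h than at 16 h relative to their own vehicle group, and 25 were lower at 16 h. The fall under the drug was deeper than in the other 382 drug-repressed probe sets, whose medians were -1.39 at 16 h and -1.40 at 48 h. All 54 members lay below every vehicle tumour in both LDE-48h tumours, and 49 did so in all 3 LDE-16h tumours. The shares over all 18194 probe sets were 28.1% and 11.1%, and nothing is read from these counts, which the rule largely fixed.

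**Figure D1:**
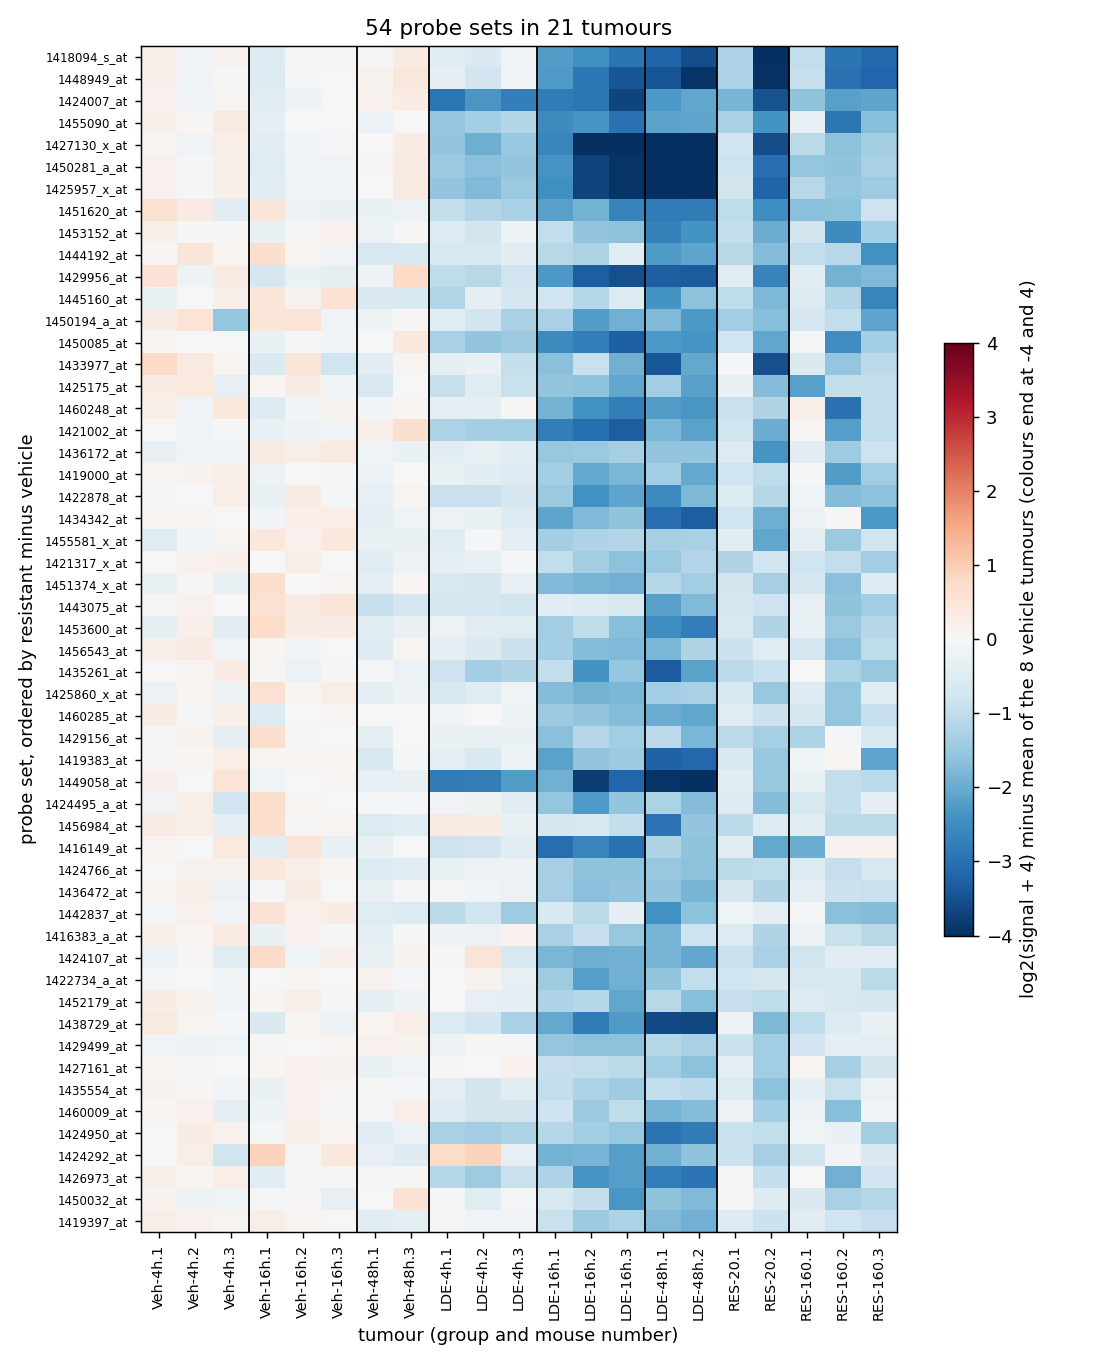
Each row is 1 of the 54 probe sets and each column 1 of the 21 tumours; colour gives log2(signal + 4) minus the mean of the 8 vehicle tumours, blue for lower and red for higher, and black lines part the groups. By the median, blue deepens from LDE-4h to LDE-48h, with 38 of the 54 lower in LDE-48h than in LDE-16h on this scale. The 5 resistant columns differ from each other, with RES-20 mouse 2 the darkest and RES-160 mouse 1 the lightest by the median.

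The resistant means of the members were mostly above those of LDE-48h tumours. In 53 of the 54 members the resistant mean was above the LDE-48h mean, with a median gap of 0.97. It was below in 1 member, in 0 of the other 382 drug-repressed and in 7381 of all 18194 probe sets. In 26 members each of the 5 resistant tumours was above both LDE-48h tumours. The same separation held in 363 of the other 382 drug-repressed and in 28.2% of all 18194 probe sets. The members' resistant means were thus between vehicle and LDE-48h, except in 1424007_at, whose resistant mean was 0.06 below the LDE-48h mean. The rule favoured this order, with its limits of -1 at 48 h and -0.7 in resistance, so nothing is read from it. The other drug-repressed probe sets stood at a median of -0.22 against vehicle in resistant tumours and 1.26 above LDE-48h. The 3 members nearest the limit of the rule were 1419397_at at -0.71, 1450032_at at -0.72 and 1426973_at at -0.72. The 3 nearest outside it were 1434365_a_at at -0.699, 1437187_at at -0.697 and 1441275_at at -0.695, so the edge of the group is a matter of a few hundredths.

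In 17 of the 54 members all 5 resistant tumours were below all 8 vehicle tumours, against 1.41% of all 18194 probe sets. In 21 members 4 of the 5 resistant tumours were, in 9 members 3, and in 7 members 2. The rule used the same arrays, so nothing is read from these counts beyond the spread among tumours they describe.

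The lowest members in resistance were 1418094_s_at and 1448949_at, at -2.46 and -2.45. For 1418094_s_at, vehicle signals ran from 522 through a median of 748 to 944. In LDE-4h tumours they were 558, 496 and 684, in LDE-16h tumours 157, 132 and 95.7, and in LDE-48h tumours 78.5 and 60.8. RES-20 tumours gave 315.5 and 42.9, and RES-160 tumours 372, 94.6 and 82.0, a mean of 181 ± 151 (SD, n = 5). The resistant tumours fell into a low set of 3, at about the level of acute treatment, and a middle set of 2, RES-20 mouse 1 and RES-160 mouse 1, and none reached a vehicle tumour. For 1448949_at the resistant signals were 443 and 64.2 at the lower dose and 553.5, 127 and 113 at the higher one, against 708 to 1423 in vehicle tumours. The same 2 tumours were the higher ones. Relative to their vehicle means, 1418094_s_at and 1448949_at ran closely together over the 5 resistant tumours. They therefore do not count as 2 separate observations.

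The third lowest, 1424007_at (-2.25), was the only member whose resistant mean on the log2 scale was not above that of LDE-48h tumours. Vehicle signals ran from 217 through 303 to 359. LDE-4h tumours gave 36.4, 54.7 and 40.9, LDE-16h tumours 38.6, 35.9 and 19.3, and LDE-48h tumours 56.9 and 65.9. RES-20 tumours gave 77.4 and 22.3, and RES-160 tumours 92.7, 62.1 and 65.2, a mean of 63.9 ± 26.2 (SD, n = 5). Signal was low in every tumour that had received drug, whatever the time, with no overlap with vehicle. Resistant tumours other than RES-20 mouse 2 were above every LDE-4h and LDE-16h tumour.

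Another pattern was held by 1427130_x_at, 1450281_a_at and 1425957_x_at, which had the largest falls of all members at 48 h, at -4.98, -4.81 and -4.71. For 1427130_x_at, vehicle signals ran from 2298 through 2994 to 3790.2, LDE-48h tumours gave 115 and 94.5, and LDE-16h tumours gave 501, 155 and 174. RES-20 tumours gave 1763.5 and 259, and RES-160 tumours 1449, 988 and 1173, a mean of 1127 ± 566 (SD, n = 5). On the log2 scale 4 of the 5 resistant tumours were nearer to vehicle than to LDE-48h. All 5 were below the lowest vehicle tumour, and RES-20 mouse 2 stood apart at the bottom. Against LDE-48h the resistant mean of 1427130_x_at was 3.14 higher. The other probe sets of this trio gave resistant means 2.95 and 2.93 above LDE-48h, with RES-20 mouse 2 again lowest, at 358 and 343. The trio includes 1 of the closest pairs, and 2 of its members carry the suffix _x_at, so it does not count as 3 separate observations.

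The remaining 4 of the 10 lowest were 1455090_at (-1.71), 1451620_at (-1.53), 1453152_at (-1.52) and 1444192_at (-1.47). For 1455090_at, RES-20 tumours gave 536 and 245, and RES-160 tumours 1049, 173.5 and 403, against 1015 to 1678 in vehicle. RES-160 mouse 1 lay inside the vehicle range here, and RES-20 mouse 2 and RES-160 mouse 2 were below both LDE-48h tumours, which gave 297 and 301. For 1453152_at, resistant tumours gave 199, 98.1, 236, 66.0 and 155 in the same order, against 333.5 to 469 in vehicle, with no overlap. The dim members 1451620_at and 1444192_at were also low in all 5, with resistant means of 31.0 ± 14.4 and 30.3 ± 12.1 (SD, n = 5) against vehicle medians of 75.5 and 89.5. At such signals the offset of 4 and the array's background weigh more on the difference.

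**Figure D2:**
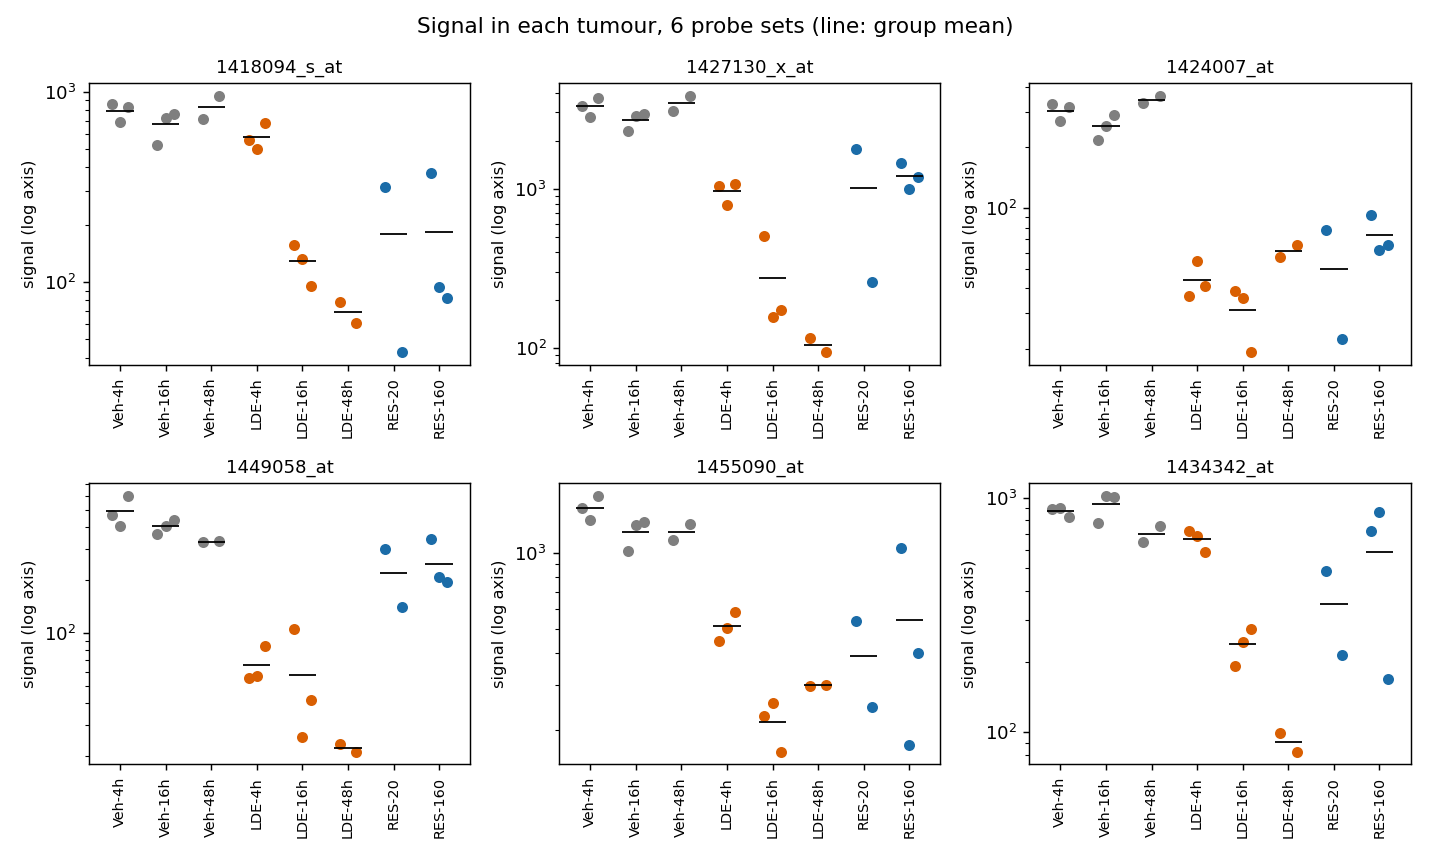
Signal on a log axis in each tumour for 6 members, by group, with vehicle in grey, LDE225 at 4 to 48 h in orange, resistant tumours in blue and lines at group means. 1424007_at was about as low in resistant as in LDE-48h tumours, and 1427130_x_at and 1449058_at were between the levels of LDE-48h and vehicle. In 1418094_s_at, 1455090_at and 1434342_at the resistant tumours were spread widely.

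The members were spread widely among the resistant tumours. The median SD of a member over the 5 resistant tumours was 0.64 on the log2 scale, against 0.27 over the 8 vehicle tumours. It was 0.32 for the other drug-repressed probe sets and 0.28 for all 18194. The median range from the lowest to the highest resistant tumour was 1.53, from 0.48 in 1452179_at to 3.47 in 1433977_at. The rule chose on the mean, and a mean can be pulled down by few tumours, so this spread is given as a description.

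The tumours kept a rough order. The median of the members against vehicle was -0.52 in RES-160 mouse 1, -0.78 in RES-20 mouse 1, -1.06 in RES-160 mouse 3, -1.38 in RES-160 mouse 2 and -1.45 in RES-20 mouse 2. Members below all 8 vehicle tumours numbered 27, 40, 47, 45 and 51 in that order, where 13.8%, 13.4%, 25.6%, 22.3% and 19.4% of all 18194 probe sets were. RES-20 mouse 2 was the lowest of the 5 in 24 of the 54 members (44.4%), against 52.1% of the other drug-repressed and 19.4% of all 18194 probe sets. RES-160 mouse 1 was the highest in 30 (55.6%), against 42.9% and 19.8%. These places were thus common among drug-repressed probe sets in general. Neither dose group was above or below the other: each held 1 tumour at an end of the order.

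**Figure D3:**
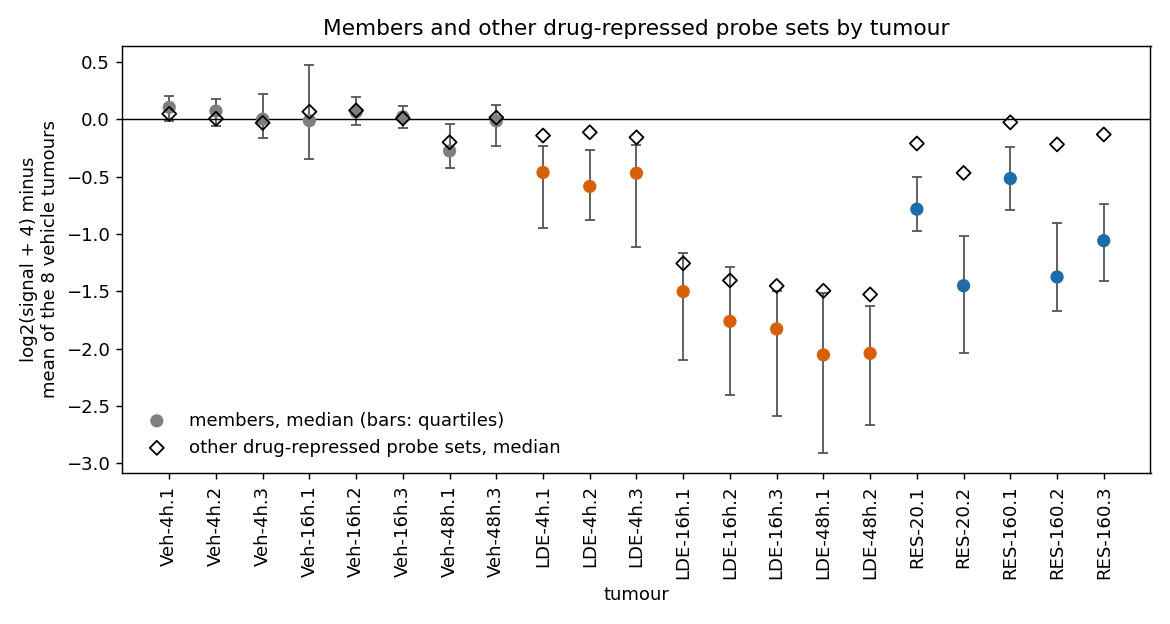
Points are the median of the 54 members in each tumour as log2(signal + 4) minus the vehicle mean, with bars from the lower to the upper quartile; open diamonds are the medians of the other 382 drug-repressed probe sets. The diamonds lie between -0.47 and -0.03 in resistant tumours, and the members between -1.45 and -0.52.

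At least 1 resistant tumour was within the vehicle range in 37 members, and which one it was varied. RES-160 mouse 1 was within it in 27 members and the only such tumour in 15; RES-20 mouse 1 in 14 and 3; RES-160 mouse 2 in 9 and 1; RES-160 mouse 3 in 7 and 1; and RES-20 mouse 2 in 3 and 1. The following members were picked after their values were seen, as examples of such exceptions. The pair 1434342_at and 1419383_at was at vehicle level in RES-160 mouse 2, with 866 and 936, and low in RES-160 mouse 3, with 169 and 203. Their vehicle medians were 863 and 926, so 2 tumours on the same dose held nearly the full range from vehicle to acute treatment.

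A different set of tumours was near vehicle level in 1416149_at, which gave 923 and 920.0 in RES-160 mouse 2 and mouse 3, against a vehicle median of 839. It gave 198 in RES-20 mouse 2 and 206 in RES-160 mouse 1, below both LDE-48h tumours at 358 and 268.5. RES-160 mouse 1, the tumour closest to vehicle for most members, was thus among the lowest here. The reverse held for 1442837_at, at 58.5 and 55.0 in RES-160 mouse 2 and mouse 3 and at 171.5, 146 and 189 in the other three, inside the vehicle range of 133 to 288. In 1460248_at RES-160 mouse 2 was lowest, at 81.2, while RES-160 mouse 1 gave 771.5, above the vehicle median of 669. Which tumours were low thus differed between members.

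A measure less tied to the rule is each resistant tumour read in probe sets chosen without it. This reading was added after the data were seen, and the vehicle arrays are shared between choice and reading. That sharing favours low readings in the chosen probe sets, which are themselves among the 436 drug-repressed ones. Without RES-20 mouse 1 the rule chose 62 probe sets, of which 31 (50%) were at -0.7 or below in that tumour, against 10.6% of the 436 drug-repressed and 2.44% of all 18194 probe sets. Without RES-20 mouse 2 it chose 44, of which 35 (79.5%) were low in it, against 38.3% and 6.78%. At the lower dose both left-out tumours were thus low in at least 50% of what the other 4 had chosen.

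At 160 mg/kg/day the shares differed more. For RES-160 mouse 1 it was 16 of 67 (23.9%), against 10.6% of the drug-repressed and 3.48% of all probe sets. For RES-160 mouse 2 it was 37 of 54 (68.5%), against 20.0% and 7.02%. For RES-160 mouse 3 it was 35 of 58 (60.3%), against 17.4% and 11.1%. Each of the 5 shares was above that of the drug-repressed probe sets in the same tumour, an order that the shared vehicle arrays favour. RES-160 mouse 1 had the smallest share, with 51 of the 67 probe sets above the limit.

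**Figure D4:**
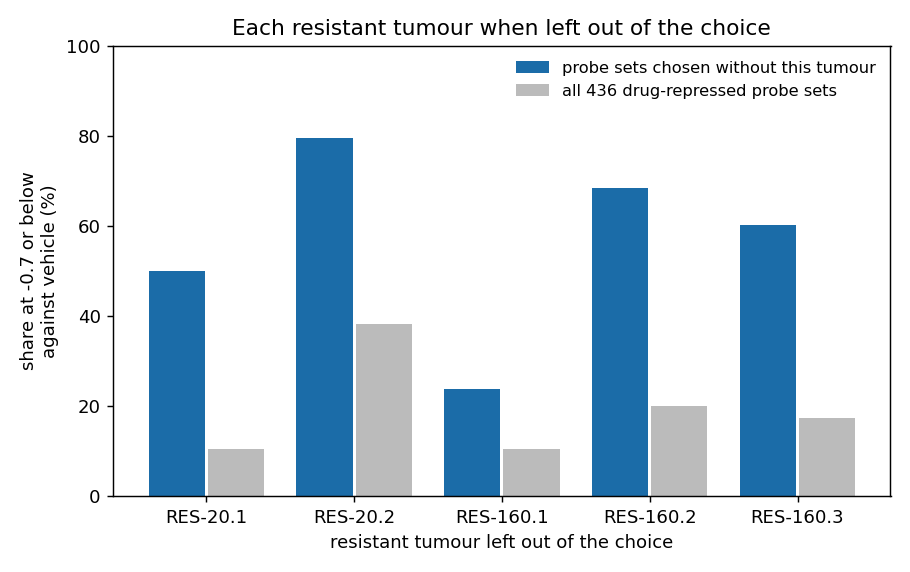
For each resistant tumour, blue bars give the percent of probe sets chosen by the other 4 that were at -0.7 or below against vehicle in it, and grey bars the same percent of all 436 drug-repressed probe sets. Blue bars run from 23.9% in RES-160 mouse 1 to 79.5% in RES-20 mouse 2, and grey bars from 10.6% to 38.3%.

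The 4 h tumours show the members soon after dosing. None of the LDE-4h arrays chose the members, while the 3 Veh-4h tumours were among the 8 vehicle tumours of the rule. Of the 54 members, 48 were lower in LDE-4h than in Veh-4h and 6 were higher, with a median difference of -0.55. The median was -0.12 for the other drug-repressed probe sets and -0.01 for all 18194. In 36 members all 3 LDE-4h tumours were below all 3 Veh-4h tumours, against 110 of the 382 other drug-repressed and 8.54% of all 18194 probe sets. When the rule was applied without any 4 h vehicle tumour it again chose 54 probe sets, 48 of them the same, of which 33 did not overlap between the groups and whose median was -0.49.

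Across the 32842 probe sets tested at 4 h, 31 (0.0944%) were called lower and 3 higher (limma, Benjamini-Hochberg adjusted p below 0.05). Among them were 3 of the 54 members and 16 of the 382 other drug-repressed probe sets. Of the 54 probe sets chosen without any 4 h vehicle tumour, 2 were called lower. At an unadjusted p below 0.05, 22 members were lower, as were 2.92% of all probe sets tested. All 54 members passed the filter on low signals. The fit over all groups takes its spread from all 8 of them, resistant tumours included. A fit to the 6 arrays of 4 h alone called 15 members lower, against 41 of the 382 other drug-repressed and 91 of all 28963 probe sets (0.314%). The cause of the difference in counts was not tested.

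Both fits called 1449058_at lower, with the lowest difference of all 18194 probe sets at 4 h. Vehicle tumours at 4 h gave 470.1, 405 and 599.9 and treated tumours 55.4, 57.3 and 84.7, a log2 difference of -2.83 (SE 0.35, limma adjusted p = 0.00263). The treated tumours were about as low as at 16 h, where signals were 105, 25.8 and 41.6, while at 48 h they were 23.5 and 21.2. In resistance the signal was above that of both LDE-48h tumours, at 300.3 and 140.2 in RES-20 tumours and at 343, 208 and 194 in RES-160 tumours. Of these only RES-160 mouse 1 lay within the vehicle range, which began at 327. Its resistant difference of -0.85 was smaller than at any time under acute treatment.

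The second was 1424007_at at -2.70 (SE 0.31, limma adjusted p = 0.00144). It was already close to its level at 16 h and 48 h, where the differences were -2.91 and -2.42. The third was 1424950_at, with 377, 453 and 416 in vehicle and 148, 139.5 and 154 in treated tumours at 4 h, a difference of -1.47 (SE 0.22, limma adjusted p = 0.0101). In resistant tumours it gave 198, 186.5, 329, 311 and 139.9, of which the 2 highest, RES-160 mouse 1 and mouse 2, lay within the vehicle range. Leaving out any 1 of the 6 tumours of 4 h other than LDE-4h mouse 3 ended this call. The limma adjusted p was then between 0.0536 and 0.0872. The choice without any 4 h vehicle tumour did not include 1424950_at.

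Members with a difference below -1.4 at 4 h that did not pass in the fit over all groups were 1427130_x_at (-1.76), 1425957_x_at (-1.71), 1450281_a_at (-1.68), 1455090_at (-1.56) and 1450085_at (-1.46), with limma adjusted p of 0.232 or more. The 6-array fit called all 5 lower. For 1427130_x_at the treated tumours gave 1031, 789 and 1072, against 3293, 2802 and 3714 in vehicle. A low value at 4 h and a low value in resistance did not go together in every member. The 2 lowest in resistance, 1418094_s_at and 1448949_at, were at -0.46 and -0.44 at 4 h, with SE of 0.52 and 0.54, and neither fit called them. The largest value on the other side was 0.61 (SE 0.31) for 1424292_at.

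**Figure D5:**
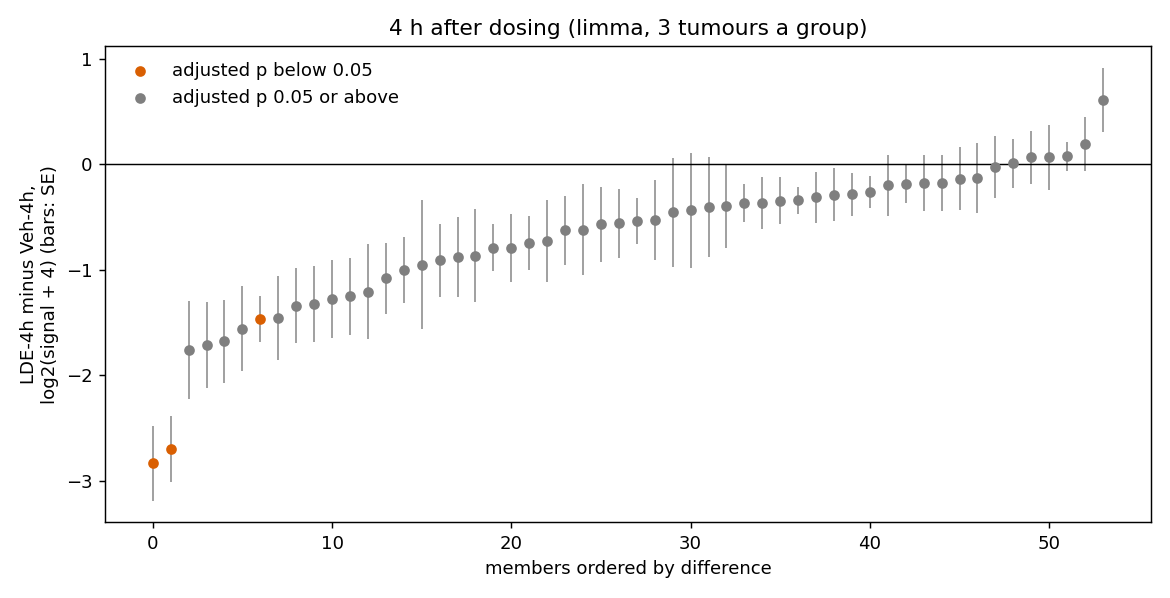
LDE-4h minus Veh-4h on the scale of log2(signal + 4) for the 54 members in order of size, with SE bars from limma; orange points had an adjusted p below 0.05 in the fit over all groups. Most points lie below 0, with the members 1449058_at and 1424007_at far below the rest.

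The doses were compared with 3 resistant tumours at 160 mg/kg/day against 2 at 20 mg/kg/day. None of the 54 members passed (limma, Benjamini-Hochberg adjusted p below 0.05), against 216 lower and 38 higher of all 32842 probe sets, 0.773% in all. At an unadjusted p below 0.05, 1 of the 54 members was lower and 3 were higher at the higher dose. Of all probe sets tested, 8.81% were lower and 4.82% higher at that p, so the count of lower members was under the background share and that of higher members near it. The median of the members was 0.23 higher at 160 than at 20 mg/kg/day, and that of the other drug-repressed probe sets 0.22 higher.

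That value turned on single tumours. Without RES-20 mouse 2 the median was -0.32 and no member passed, and without RES-20 mouse 1 it was 0.66 and 8 members passed as higher, 1424007_at, 1427130_x_at and 1436172_at among them, with 1 tumour left at the lower dose. In that fit 22 of the 382 other drug-repressed and 0.571% of all probe sets tested also passed as higher. Without RES-160 mouse 1, 2 members passed as lower (1442837_at and 1443075_at) and 2 as higher (1416149_at and 1429499_at), against 2.96% lower and 1.19% higher of all probe sets in that fit. Without RES-160 mouse 3, 2 passed as higher (1424950_at and 1434342_at), against 0.205% of all probe sets. The smallest adjusted p with all 5 tumours was 0.0660 (limma), for 1429499_at at 0.62 (SE 0.15). With these numbers of tumours a difference between doses in the members could not be told from the difference between single tumours.

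Some technical measures of the arrays ran with time. The ratio of 3' to 5' signal of the actin control was between 1.53 and 1.91 on the 12 arrays of 4 h and 16 h, and between 1.25 and 1.40 on the 9 arrays of 48 h and resistant tumours. A hybridisation control (BioC) gave signals of 418 to 996 on the former and 158 to 223 on the latter. The 3' to 5' ratio of the Gapdh control overlapped, at 0.82 to 1.02 on the former and 0.81 to 0.91 on the latter. Most vehicle tumours of the rule are in the former set, and its part in the result was not tested. The 2 Veh-48h tumours share the range of these measures with the resistant arrays. Against them alone the members' median was -0.82. All 54 were below 0 and 37 at -0.7 or below, against 50.8% and 3.54% of all 18194 probe sets. The rule had used these same vehicle and resistant arrays, which largely fixed these counts, so they are a description only. Array means lay between 221.4 and 256.4 over all 21 arrays, and the highest correlation between 2 arrays was 0.979.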

How the data were processed

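The authors deposited 1 intensity per probe set and tumour on a linear scale. MAS5 made these values, per the submitters' processing notes; its version and scaling target are not given in the sources used here. The deposited values were used without further scaling. An offset of 4 was added before log2. The members and lists were chosen with earlier results of these data known. Differences of the rule are differences of group means and carry no test. At 4 h and between doses, 1 linear model over the 8 groups was fitted with limma 3.58.1 (R 4.3.3) and a mean-variance trend, on 32842 probe sets at or above the 40th percentile of at least 2 arrays, with two-sided tests and Benjamini-Hochberg adjustment over all of them at 0.05. The fit had 13 residual degrees of freedom. On simulated data the only condition set was that its median estimates lay close to the planted differences. The text names the 10 members lowest in resistance, those past the threshold at 4 h or between doses (at most 10 each), the 3 on each side of the limit, and members said to be picked later. Gene lists and DNA arrays were not used, for want of a table pairing probe sets with genes. Mouse numbers were not taken to pair the tumours: in the groups compared (4 h, and the 2 doses), deviations of same-numbered tumours correlated between -0.06 and 0.14, not all above 0.1. The number of arrays limits the precision. Python 3.11.15, numpy 2.4.6, pandas 2.3.3 and matplotlib 3.10.9 were used.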

Additional observations from a re-analysis of the deposited data

How the results depend on the processing

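The rule chose 54 probe sets, and 188 when the arrays were scaled to the same median signal, all 54 among them. That scaling moved the median of all 18194 probe sets to -0.54 at 48 h and -0.23 in resistant tumours, and relative to it the members stood at -1.78 and -0.95. With the 2 tumours at 20 mg/kg/day alone the rule chose 99, of which 48 were shared, with the 3 at 160 mg/kg/day 48, of which 41 were shared, and with the vehicle tumours of 48 h alone 52, of which 37 were shared. Offsets of 1 and 16 gave 61 and 40, and quantile normalization 74. Leaving out 1 tumour gave 44 to 71, the fewest without RES-20 mouse 2 and the most without Veh-48h mouse 1. At 4 h, 3 members passed in the fit over all groups and 15 in the fit to the 6 arrays compared. Leaving out 1 tumour gave 2 or 3, and the choice without any 4 h vehicle tumour gave 2. Over all probe sets the 34 calls at 4 h became 2 to 31 without 1 tumour, 17 without the trend and 117 in the 6-array fit. Between doses, 0 members passed, and 0 to 8 without 1 tumour. The 254 calls over all probe sets became 4 to 1359 without 1 tumour, 125 without the trend and 0 in the fit to the 5 resistant arrays. With the mouse number as a block, 3 members passed at 4 h and 0 between doses, so the block changed no call on members. These fits differ in residual spread and in numbers of tumours, and the cause of the differing counts was not tested. The promoter and DNA comparisons and the tests of gene lists planned at the outset were not run.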
